A study of Mus musculus with 26 samples.

Results

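The 10 genes described here encode products that Sertoli cells of the fetal testis secrete or work with: Amh, Cst9, Cst8, Serpine2, Erbb4, Hsd17b3, Tesc, Aard, Mro and Cldn11. They were chosen by name, with no threshold on their measured values, but with earlier results of these data known. The shares of members called are therefore not independent of these data. Each gene was matched by symbol and gene identifier to 1 of the 57186 genes in the count table of the Fgf9 deletions. All 10 passed the low-count filter both there, where 22941 genes were tested, and in the Meis1 table, where 16791 genes were tested. The data are RNA-seq counts from whole XY mouse gonads at embryonic stage E13.5, freed of the mesonephros before RNA was extracted. The first count table holds wild-type gonads (WT, n = 3) and gonads from 4 deletions that the labels tie to Fgf9, named Δ306 (n = 3), Δ225 (n = 6), Δ104 (n = 4) and Δ93 (n = 6). The second holds a Meis1 knockout (Meis1 KO, n = 4) beside the same 3 WT libraries. All groups share the XY label, the stage and the dissection. For the deletions, the labels give neither boundaries nor litters, and for the Meis1 KO they name no Cre or promoter.

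Sertoli cells are the supporting cells of the testis, and they arise when SRY switches on SOX9 in the XY gonad. SOX9, together with SOX8, NR5A1 and GATA4, then turns on genes of the Sertoli programme, of which Amh, the hormone that makes the Müllerian ducts regress, is the best known. FGF9 is a secreted growth factor that keeps SOX9 expressed and holds the ovarian programme in check, and supporting cells that lose this signal can turn into FOXL2-expressing pre-granulosa cells. Because whole gonads were measured, fewer Sertoli cells and less of a transcript per Sertoli cell cannot be told apart in any value given here.

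Total counts, in mega-counts (M), were 38.3 to 53.4 M in WT, 21.8 to 31.8 M in Δ306, 11.6 to 46.8 M in Δ225, 17.5 to 35.2 M in Δ104, 20.6 to 46.9 M in Δ93 and 41.8 to 51.7 M in Meis1 KO. Fgf9 itself stood at 9.53 ± 0.320 CPM (counts per M counts of the library, scaled for its composition; mean ± SD, n = 3) in WT. It was lower in Δ306 (2.48 ± 0.406, n = 3, edgeR adjusted p = 0.0148) and Δ93 (3.08 ± 0.863, n = 6, edgeR adjusted p = 0.00532), and was not called in Δ225 (7.01 ± 4.73, n = 6, edgeR adjusted p = 0.535) or Δ104 (4.85 ± 1.76, n = 4, edgeR adjusted p = 0.259). Meis1 fell from 78.4 ± 26.5 CPM (n = 3) to 0.439 ± 0.209 CPM (n = 4) in the knockout (edgeR adjusted p = 0.000179). Some libraries labelled XY were low in Y-linked transcripts. The summed CPM of the Y-linked genes Ddx3y, Uty, Kdm5d and Eif2s3y was 30.1 to 73.5 in WT, and lay below 0.1 times the lowest WT value in 7 libraries: Δ306 replicate 3, Δ225 replicate 4, Δ104 replicate 3 and Δ93 replicates 3 to 6. The others were not at the WT level either: every deletion library but Δ104 replicate 4 (35.8) lay below the lowest WT library, and all 4 genes fell in Δ93. In the Meis1 table the sum was 32.5 to 80.1 in WT and 3.66 to 15.9 in the knockout. Single Y-linked genes could be low in WT as well: Kdm5d and Eif2s3y were at 0.054 and 0.459 CPM in WT replicate 1 there. Xist did not exceed 6.26 CPM in any library. Counts of changed genes are therefore given with and without these 7 libraries, and the part of this Y-linked difference in the results was not tested beyond that.

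The Sertoli transcription factor genes as a sum were present in every library, although Sox9 and Sox8 were not steady: Sox8 was 34.7 to 36.6 CPM in WT and reached 2.01 CPM in Δ306, 2.22 CPM in Δ104 and 1.93 CPM in Δ93. The sum includes Nr5a1, Wt1 and Nr0b1, which other gonadal cells also express. The summed CPM of 8 Sertoli transcription factors was 1231 to 1345 in WT, 821 to 943 in Δ306, 796 to 1349 in Δ225, 1019 to 1290.5 in Δ104 and 832 to 1356 in Δ93. Per kilobase of annotated exon, the 10 genes covered a wide range in WT gonads. Amh stood at 867 ± 129 CPM per kilobase (SD, n = 3), followed by Aard (201 ± 11.1), Cst9 (136 ± 6.67), Cst8 (50.5 ± 5.92), Tesc (37.5 ± 8.02), Hsd17b3 (33.2 ± 3.18), Serpine2 (31.9 ± 0.968), Mro (15.7 ± 2.51), Cldn11 (15.4 ± 3.71) and Erbb4 (0.901 ± 0.0507). Amh, Aard and Cst9 were each separated from the next gene in all 3 libraries, as was Erbb4 at the bottom. Cst8, Tesc, Hsd17b3 and Serpine2 overlapped their neighbours in this order, and so did Mro and Cldn11.

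RefSeq promoter windows (GRCm38.p6) were matched for 7 of the 10 genes: Cst9, Cst8, Serpine2, Erbb4, Hsd17b3, Tesc and Cldn11. In the 250 bases before each start, 4 short motifs were searched on both strands: the SOX cores AACAAT and ACAAAG, the NR5A1 core CAAGGTC and the GATA core AGATAA. Of the 32851 mouse promoters of the same length, 9.42% held AACAAT, 16.5% ACAAAG, 3.32% CAAGGTC and 9.99% AGATAA. The 4 genes with a SOX match are printed here, 2 of which, Cst9 and Cst8, are neighbours on chromosome 2 whose levels differed in pattern. The starts are those of RefSeq and differ from the annotated GENCODE starts for a pair of them: the Cst8 start lies 54 bases further into the gene, and the whole Serpine2 window lies inside the annotated gene. The windows run 5′ to 3′ on the strand of the gene, without bases annotated as exon, and the capitals mark the match.
Cst9, chr2:148834897-148835146, plus strand: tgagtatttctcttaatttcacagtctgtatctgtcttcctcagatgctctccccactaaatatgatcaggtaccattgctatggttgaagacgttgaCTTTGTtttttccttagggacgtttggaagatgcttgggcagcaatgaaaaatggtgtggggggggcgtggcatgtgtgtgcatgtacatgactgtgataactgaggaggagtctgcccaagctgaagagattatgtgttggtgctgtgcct
Cst8, chr2:148798589-148798784, plus strand: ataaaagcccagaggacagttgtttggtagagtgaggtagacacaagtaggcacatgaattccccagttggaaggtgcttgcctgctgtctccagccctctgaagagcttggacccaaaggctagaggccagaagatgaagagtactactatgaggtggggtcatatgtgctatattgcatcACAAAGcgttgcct
Serpine2, chr1:79858697-79858915, minus strand: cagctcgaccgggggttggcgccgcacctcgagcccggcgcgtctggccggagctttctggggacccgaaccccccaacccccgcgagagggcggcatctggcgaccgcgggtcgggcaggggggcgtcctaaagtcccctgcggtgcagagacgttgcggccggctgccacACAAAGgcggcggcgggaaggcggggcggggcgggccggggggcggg
Erbb4, chr1:69108060-69108309, minus strand: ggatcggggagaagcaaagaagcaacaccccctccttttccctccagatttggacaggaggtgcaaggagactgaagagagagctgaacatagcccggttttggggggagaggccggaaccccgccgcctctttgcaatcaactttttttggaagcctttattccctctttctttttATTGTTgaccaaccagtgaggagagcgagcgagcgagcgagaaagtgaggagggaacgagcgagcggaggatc
The Cst9 match is ACAAAG on the opposite strand, 152 to 147 bases before the start. Cst8 holds ACAAAG 68 to 63 bases before its RefSeq start, and also CAAGGTC 48 to 42 bases before it, in the annotated exon that is not printed. Serpine2 holds ACAAAG 78 to 73 bases before its RefSeq start, and Erbb4 holds AACAAT on the opposite strand 73 to 68 bases before its start. No matches overlapped, and in Tesc, Hsd17b3 and Cldn11 none of these letters were found in the window. Each match describes the letters only, and no binding was measured here.

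Across the deletions, calls of lower members were found in Δ93 and Δ306. In Δ93, Mro, Erbb4, Serpine2 and Hsd17b3 fell (4 of 10 members at an edgeR p under 0.05 after Benjamini-Hochberg adjustment over all tested genes, here "called"), where 6.84% of all tested genes were called lower. In Δ306 only Mro fell by that test (1 of 10, against 3.46% of all genes). The unadjusted p there was under 0.05 for 4 members, and for 5033 of the 22941 genes tested. Counting both directions, 14.1% of all genes were called in Δ93 and 6.43% in Δ306, which is the background for the gene lists given beside the members. All libraries lay below all WT libraries for 8 members in Δ306 (18.4% of all genes) and for 7 in Δ93 (12.5%). The median log2 fold change of the 10 members was -2.13 in Δ93, beside 0.06 over all tested genes, and -1.88 in Δ306, beside 0.08. No member was called in Δ225 or in Δ104 with edgeR or with DESeq2. In Δ225, 0.209% of all genes were called in either direction. There 0 members had an unadjusted p under 0.05, beside 3687 of the 22941 genes. In Δ104, 0.061% of all genes were called. There 1 member, Mro, had an unadjusted p under 0.05, beside 3610 of the 22941 genes. Their median log2 fold changes were -0.18 in Δ225, beside 0.04 over all genes, and -0.71 in Δ104, beside 0.06. The comparisons against WT share the 3 WT libraries. WT and Δ306 are the first 6 samples of the series, which the processing notes describe apart from the rest. Δ225, Δ104, Δ93 and Meis1 KO have no WT in their own set of samples. Against WT, their genotype and sample set cannot be told apart. The same holds where Δ225, Δ104 or Δ93 is set against Δ306.

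Without the 7 libraries low in Y-linked transcripts, edgeR called no member in any of the 10 comparisons among WT and the deletions. Δ93 and Δ306 were then left with 2 libraries each, and no share over all genes is given beside these counts. In Δ93 the log2 fold changes without them were -2.35 for Mro (edgeR adjusted p = 0.0589), -2.56 for Erbb4 (0.190), -2.59 for Serpine2 (0.0864) and -3.95 for Hsd17b3 (0.182). Each of these was at least as far below WT as with all libraries. In Δ306, Mro was at -1.74 without them (edgeR adjusted p = 0.177).

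**Figure D1:**
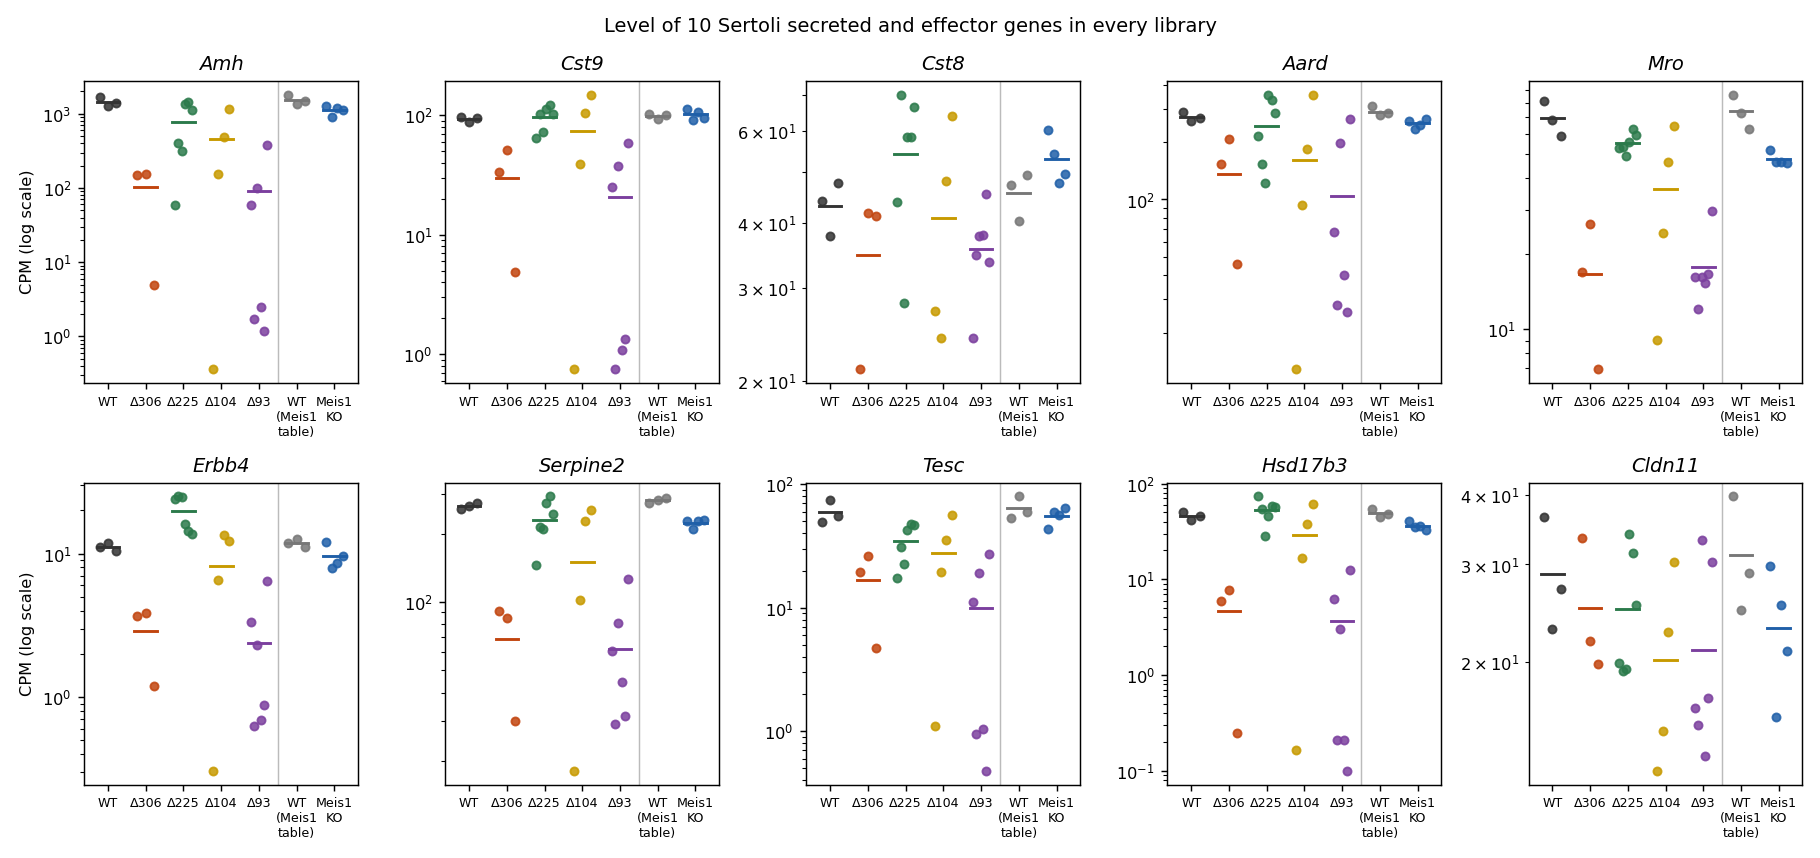
Level of each of the 10 genes in CPM (log axis) in every library, by group, with the mean of each group as a bar; the 2 groups to the right of the grey line come from the Meis1 table. Amh, Cst9, Aard, Erbb4, Tesc and Hsd17b3 spread over more than 10-fold within Δ93 and Δ104, while Cst8 and Cldn11 stay within 3-fold in each group.

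**Figure D2:**
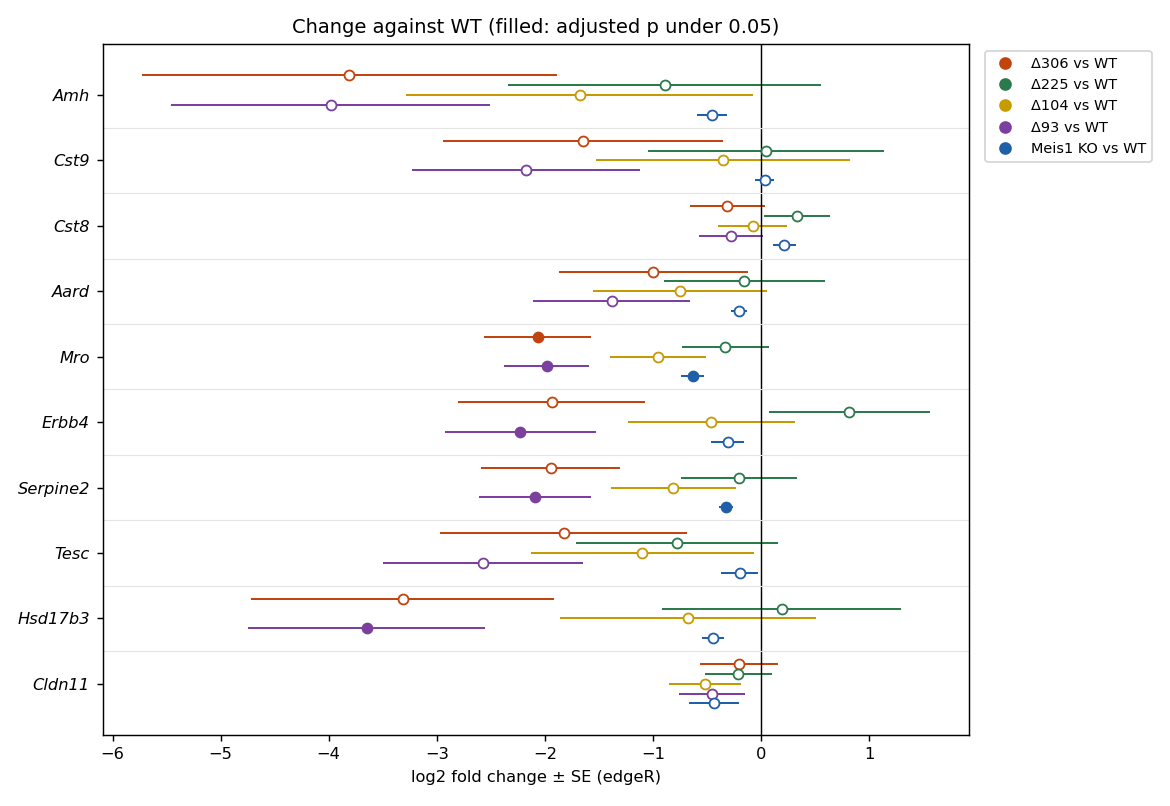
Log2 fold change against WT with its standard error from edgeR, for the 4 deletions and the Meis1 KO; filled points have an adjusted p under 0.05. Filled points are Mro in Δ306, Mro, Erbb4, Serpine2 and Hsd17b3 in Δ93, and Mro and Serpine2 in Meis1 KO.

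Amh (chr10:80805243-80807648, mm10, plus strand) encodes the hormone that removes the Müllerian ducts. Its level was 1685, 1263 and 1397 CPM in WT replicates 1 to 3. In Δ306 it was 151, 154 and 4.95 CPM, and in Δ93 it ran from 1.18 to 384 CPM with a median of 30.5. All Δ306 and Δ93 libraries lay below the lowest WT library. In Δ104 Amh was 0.361, 155, 489 and 1166 CPM in replicates 1 to 4, and in Δ225 it ran from 58.7 to 1440.4 CPM with a median of 757. All 4 Δ104 libraries were below WT, as were those of 9.4% of all genes, but they spanned nearly the whole range seen in the study, and Δ225 overlapped WT. The log2 fold change was -3.98 ± 1.47 (SE) in Δ93 (edgeR adjusted p = 0.0751) and -3.81 ± 1.92 in Δ306 (edgeR adjusted p = 0.253). Neither passed the test in this fit, with standard errors above 1 on the log2 scale. The Δ93 value passed with DESeq2 and with the replicate number as a block, and the Δ306 value passed when fitted with WT alone. Leaving out 1 library at a time gave a call only without Δ93 replicate 6, the highest of that group (-5.44, edgeR adjusted p = 0.0245). The Δ225 value was -0.89 ± 1.44 (edgeR adjusted p = 0.769). Sequencing depth moved with Amh inside Δ225: replicates 1 to 3, with 11.6 to 23.3 M counts, had 58.7, 405 and 311 CPM, and replicates 4 to 6, with 41.3 to 46.8 M, had 1352, 1440.4 and 1110 CPM. Among libraries of at least 30 M counts, a choice made after the data were seen, Amh in Δ225 was at -0.13 against WT (edgeR adjusted p = 0.990).

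Of 12 AMH receptor and effector genes, all tested, 1 was called lower and 1 higher in Δ306, and 1 lower and 2 higher in Δ93. Amhr2, the specific type II receptor for AMH, averaged 120 ± 22.3 CPM over the 3 WT libraries, 158 ± 26.0 CPM over the 3 of Δ306 and 210 ± 50.3 CPM over the 6 of Δ93. It was not called in Δ306 (log2 fold change 0.40, edgeR adjusted p = 0.699) or in Δ93. Acvr1, a type I receptor that AMH can use, fell by 1.08 on the log2 scale in Δ306 (edgeR adjusted p = 0.0054) and by 0.92 in Δ93 (edgeR adjusted p = 0.0015). Bmpr1b, another type I receptor of the BMP family, rose by 1.83 in Δ306 (edgeR adjusted p = 0.0454) and by 2.03 in Δ93 (edgeR adjusted p = 0.0101). Smad5, a receptor-activated signal transducer, rose by 0.50 in Δ93 (edgeR adjusted p = 0.0376).

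Cst9 and Cst8 encode secreted proteins of the cystatin family, whose best-known members inhibit cysteine proteases. They lie on the plus strand of chromosome 2 (mm10), Cst8 at 148798785-148805595 and Cst9 at 148835147-148838738, with their starts 36362 bases apart. Their levels differed in behaviour. Cst9 was 96.2, 88.0 and 95.7 CPM in WT and 33.8, 50.7 and 4.87 CPM in Δ306, and in Δ93 it ran from 0.758 to 58.1 CPM with a median of 13.2. All Δ306 and Δ93 libraries were below WT. Cst8 was 44.0, 37.7 and 47.7 CPM in WT and 21.0, 41.8 and 41.2 CPM in Δ306, and in Δ93 it ran from 24.1 to 45.3 CPM with a median of 36.3. Cst8 overlapped WT in both deletions. In Δ104 replicate 1, where Cst9 was at 0.750 CPM, Cst8 was at 27.2 CPM. The other Δ104 libraries had 39.3, 104.1 and 148 CPM of Cst9 and 24.1, 48.1 and 64.0 CPM of Cst8. In Δ225 Cst9 ran from 64.4 to 123 CPM with a median of 102, and Cst8 from 28.1 to 70.2 CPM with a median of 58.3, and both overlapped WT. Neither gene passed the test in any comparison with WT. For Cst9 the log2 fold change was -1.65 ± 1.296 in Δ306 (edgeR adjusted p = 0.495) and -2.17 ± 1.05 in Δ93 (edgeR adjusted p = 0.179). For Cst8 it was -0.31 ± 0.35 in Δ306 (edgeR adjusted p = 0.647) and -0.28 ± 0.30 in Δ93 (edgeR adjusted p = 0.590). The difference between the 2 genes was not itself tested.

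**Figure D3:**
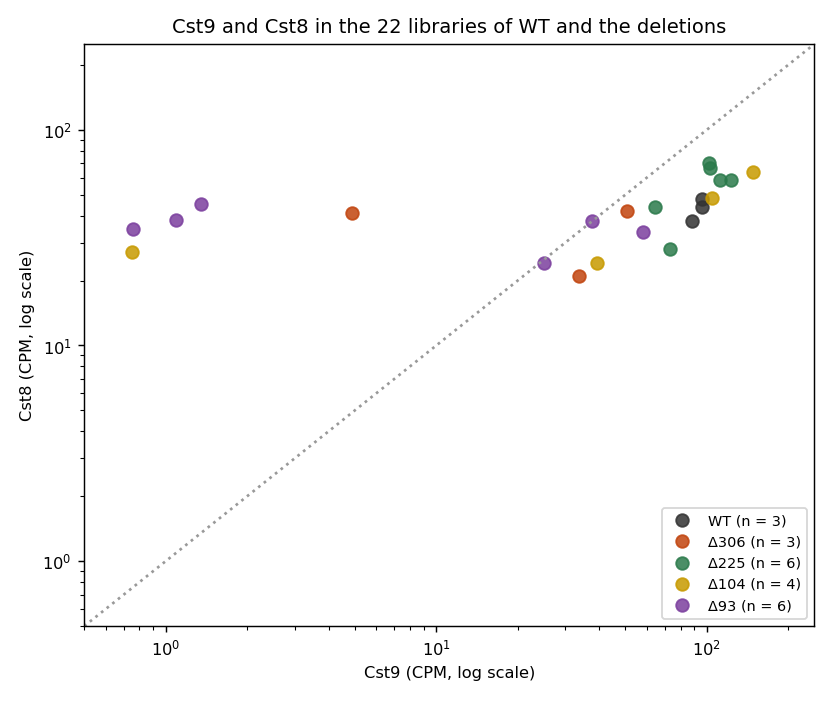
Cst8 against Cst9 in CPM (both axes log) in the 22 libraries of WT and the deletions, 1 point per library, coloured by group; the dotted line marks equal CPM. Cst9 runs from 0.750 to 148 CPM while Cst8 stays between 21.0 and 70.2 CPM.

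Of 14 cystatin and cathepsin genes, 13 were tested, and Cst12, another cystatin gene, rose in both deletions. It went from 0.270 ± 0.0865 CPM in WT (n = 3) to 3.52 ± 1.3995 in Δ306 (n = 3; log2 fold change 3.72, edgeR adjusted p = 0.00614) and 3.61 ± 2.42 in Δ93 (n = 6; 3.75, edgeR adjusted p = 0.00152). Ctsl, which encodes the lysosomal protease cathepsin L, fell by 1.22 on the log2 scale in Δ93 (edgeR adjusted p = 0.0208), and was the only gene of this list called lower against WT in any group. Cst3, which encodes the widely secreted cystatin C, was not called in Δ306 (log2 fold change -0.38, edgeR adjusted p = 0.583) or in Δ93.

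Serpine2 (chr1:79794197-79861180, minus strand) encodes protease nexin-1, a secreted inhibitor of thrombin, urokinase and plasmin. It was 256, 265 and 272 CPM in WT and 90.9, 84.9 and 30.1 CPM in Δ306, and in Δ93 it ran from 29.2 to 126 CPM with a median of 52.7. All Δ306 and Δ93 libraries were below WT. In Δ104 it was 18.1, 103, 228 and 254 CPM, each below the lowest WT library, and in Δ225 it ran from 146 to 291 CPM with a median of 229 and overlapped WT. Serpine2 fell 4.25-fold in Δ93 (log2 fold change -2.09 ± 0.52, edgeR adjusted p = 0.0106). In Δ306 the value was similar, -1.95 ± 0.64, and missed the threshold (edgeR adjusted p = 0.0729). Fitted with WT alone, the Δ306 value passed (edgeR adjusted p = 0.0147). Of 10 genes of the plasminogen activator system, 9 were tested, and none was called by edgeR in Δ306. There 4 had an unadjusted p under 0.05, beside 5033 of all 22941 genes. In Δ93 the urokinase receptor gene Plaur fell by 1.51 (edgeR adjusted p = 0.0153), and the thrombin receptor gene F2r by 1.02 (edgeR adjusted p = 0.0077). Plg, which encodes plasminogen, rose in Δ93 (log2 fold change 8.50 ± 2.82, edgeR adjusted p = 0.0486), with libraries that overlapped WT. Plat and Plau, the plasminogen activators, were not called in Δ306 (log2 fold changes 0.06 and -0.45, edgeR adjusted p = 0.922 and 0.342) or in Δ93.

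Erbb4 (chr1:68032186-69108059, minus strand) encodes a receptor tyrosine kinase for neuregulins. Its level was 11.1, 11.8 and 10.5 CPM in WT and 3.64, 3.87 and 1.201 CPM in Δ306, and in Δ93 it ran from 0.632 to 6.48 CPM with a median of 1.59. All of these Δ306 and Δ93 libraries were below WT. In Δ225 it ran the other way, from 13.7 to 25.0 CPM with a median of 20.1. All 6 Δ225 libraries were above the highest WT library, where 5.22% of all genes were that consistently higher, yet the difference missed the threshold (log2 fold change 0.82 ± 0.74, edgeR adjusted p = 0.578). The 3 shallower Δ225 libraries had 24.1, 25.0 and 24.8 CPM and the 3 deeper ones 16.0, 14.3 and 13.7 CPM, and among libraries of at least 30 M counts the value was 0.43 (edgeR adjusted p = 0.849). Erbb4 in Δ104 was 0.305, 6.59, 13.49 and 12.2 CPM, with replicates 3 and 4 above WT and the others below. Erbb4 fell 4.68-fold in Δ93 (log2 fold change -2.23 ± 0.70, edgeR adjusted p = 0.0372). That call was lost when any 1 WT library or any 1 of Δ93 replicates 2 to 5 was left out (edgeR adjusted p = 0.0618 to 0.0945). In Δ306 the value was -1.94 ± 0.87 (edgeR adjusted p = 0.191), and it passed when fitted with WT alone.

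Of 13 ERBB receptor and ligand genes, 11 were tested. Ereg, which encodes the ligand epiregulin, rose in Δ306 (log2 fold change 3.61, edgeR adjusted p = 0.00706) and in Δ93 (3.80, edgeR adjusted p = 0.00153), and Tgfa, which encodes another ligand, rose in Δ93 (1.18, edgeR adjusted p = 0.00453). Erbb2, the partner receptor without a ligand of its own, went from 147 ± 23.3 CPM in WT (n = 3) to 81.3 ± 8.80 in Δ93 (n = 6; log2 fold change -0.85, edgeR adjusted p = 0.0456). Nrg1, which encodes a neuregulin that binds ERBB4, averaged 34.6 ± 4.82 CPM over the 3 WT libraries, 17.5 ± 5.42 CPM over the 3 of Δ306 and 17.2 ± 8.14 CPM over the 6 of Δ93. It was not called in Δ306 (log2 fold change -0.98, edgeR adjusted p = 0.174) or in Δ93.

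Hsd17b3 (chr13:64058266-64089230, minus strand) encodes the enzyme that turns androstenedione into testosterone, a step that the mouse fetal testis carries out in Sertoli cells. It was 50.6, 41.8 and 46.2 CPM in WT and 5.97, 7.67 and 0.247 CPM in Δ306, and in Δ93 it ran from 0.1002 to 12.5 CPM with a median of 1.63. No Δ306 or Δ93 library reached WT. In Δ104 it was 0.167, 16.6, 38.1 and 60.8 CPM, from the second-lowest value in the study to above WT. In Δ225 it ran from 28.6 to 73.3 CPM with a median of 55.6 and overlapped WT. Hsd17b3 fell 12.6-fold in Δ93 (log2 fold change -3.65 ± 1.09, edgeR adjusted p = 0.0300), the largest fold of the members called there. The call was lost when any 1 WT library or any 1 of Δ93 replicates 2 to 4 was left out (edgeR adjusted p = 0.0520 to 0.0782). In Δ306 the value was -3.32 ± 1.41 (edgeR adjusted p = 0.165), and it passed when fitted with WT alone.

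Of 12 genes for 17-beta-hydroxysteroid dehydrogenases and androgen action, 11 were tested. Hsd17b1, a related enzyme that also makes active sex steroids, fell from 12.3 ± 3.13 CPM in WT (n = 3) to 0.809 ± 0.390 in Δ306 (n = 3; log2 fold change -3.92, edgeR adjusted p = 0.0217) and 1.004 ± 0.789 in Δ93 (n = 6; -3.61, edgeR adjusted p = 0.0032). Hsd17b2, whose product inactivates sex steroids, rose by 4.76 in Δ306 (edgeR adjusted p = 0.0061) and by 5.25 in Δ93 (edgeR adjusted p = 0.00108). Hsd17b14 and Srd5a2 also rose in both deletions, by 2.19 and 2.68 in Δ306 and by 2.53 and 2.71 in Δ93, and Hsd17b11 rose by 1.004 in Δ93. Marker transcripts of fetal Leydig cells, which supply the androstenedione, changed beside it. Of 6 such marker genes, 3 fell in Δ306 (Star, Cyp17a1 and Hsd3b1, by 4.24, 5.24 and 3.52), and 4 fell in Δ93. The summed CPM of the 6 markers was 918 to 1578 in WT, 53.0 to 101 in Δ306, 51.4 to 317 in Δ93, 79.2 to 1651 in Δ104 and 491 to 3048 in Δ225. What part fetal Leydig cells had in the level of Hsd17b3 was not tested.

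Tesc (chr5:118027743-118061878, plus strand) encodes tescalcin, a calcium-binding protein of the calcineurin homologous family. It was 49.3, 73.9 and 55.7 CPM in WT and 19.5, 26.3 and 4.70 CPM in Δ306, and in Δ93 it ran from 0.476 to 27.3 CPM with a median of 6.10. In Δ225 it ran from 17.4 to 47.9 CPM with a median of 36.6. All libraries of these 3 deletions were below the lowest WT library. For Δ225, 4.9% of all genes were lower without overlap. None of the differences passed the test: the log2 fold change was -1.82 ± 1.14 in Δ306 (edgeR adjusted p = 0.375), -2.58 ± 0.93 in Δ93 (edgeR adjusted p = 0.0673) and -0.78 ± 0.93 in Δ225 (edgeR adjusted p = 0.682). Leaving out 1 library at a time gave a call only without Δ93 replicate 6, the highest of that group (-3.18, edgeR adjusted p = 0.0312). In Δ104 Tesc was 1.11, 19.4, 35.2 and 56.1 CPM, with only replicate 4 inside the WT range. Of 5 genes of the related CHP proteins and sodium-proton exchangers, Slc9a2 fell in Δ93 (log2 fold change -1.31, edgeR adjusted p = 0.0451).

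Aard (chr15:52040107-52045722, plus strand), named for its alanine- and arginine-rich domain, was 287, 258 and 267 CPM in WT and 154, 208 and 45.8 CPM in Δ306. In Δ93 it ran from 25.7 to 265 CPM with a median of 53.9, and in Δ225 from 122 to 354 CPM with a median of 249. Δ306 did not overlap WT, and Δ93 did so only through replicate 6. In Δ104 it was 12.9, 93.7, 184 and 354 CPM, with replicate 4 above WT and the others below. The log2 fold change was -0.995 ± 0.88 in Δ306 (edgeR adjusted p = 0.549) and -1.38 ± 0.73 in Δ93 (edgeR adjusted p = 0.218), and neither passed the test.

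Mro (chr18:73859385-73881333, plus strand) encodes maestro, a protein of the fetal testis found in the nucleolus. It was 81.4, 68.6 and 59.3 CPM in WT and 16.9, 26.2 and 6.92 CPM in Δ306, and in Δ93 it ran from 12.1 to 29.6 CPM with a median of 16.2. The highest Δ306 or Δ93 library was below the lowest WT library by more than the spread of WT. In Δ225 Mro ran from 48.9 to 62.7 CPM with a median of 54.7, and in Δ104 it was 9.02, 24.2, 46.5 and 64.7 CPM, so both overlapped WT. Mro fell 4.18-fold in Δ306 (log2 fold change -2.06 ± 0.49, edgeR adjusted p = 0.0179) and 3.95-fold in Δ93 (-1.98 ± 0.40, edgeR adjusted p = 0.00300). It was the only member called in both. The Δ306 call was lost without Δ306 replicate 3 (log2 fold change -1.74, edgeR adjusted p = 0.0960) or WT replicate 1 (-1.97, edgeR adjusted p = 0.0557).

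Cldn11 (chr3:31149920-31164324, plus strand) encodes a claudin of the tight junctions that later seal the seminiferous tubule. It was 36.5, 23.0 and 27.1 CPM in WT, 33.4, 21.8 and 19.9 CPM in Δ306 and 12.7, 15.04, 22.7 and 30.4 CPM in Δ104. In Δ93 it ran from 13.6 to 33.3 CPM with a median of 16.9, and in Δ225 from 19.3 to 34.0 CPM with a median of 22.6. All 4 deletions overlapped WT. The log2 fold change was -0.21 ± 0.36 in Δ306 (edgeR adjusted p = 0.789) and -0.45 ± 0.31 in Δ93 (edgeR adjusted p = 0.355). All 17 other tight junction genes on the list were tested. Jam2, an adhesion molecule, fell by 1.76 in Δ306 (edgeR adjusted p = 0.0146) and by 1.46 in Δ93 (edgeR adjusted p = 0.0056), and Cgn, which encodes the cytoplasmic linker cingulin, rose by 1.597 in Δ306 (edgeR adjusted p = 0.00855) and by 1.82 in Δ93 (edgeR adjusted p = 0.0011). Cldn12 rose by 0.34 in Δ93 (edgeR adjusted p = 0.0445). Ocln and Tjp1, for occludin and ZO-1, were not called in Δ306 (log2 fold changes 0.80 and -0.22, edgeR adjusted p = 0.233 and 0.725) or in Δ93.

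Libraries of 1 genotype differed from each other in most members at once. In Δ104 replicate 1 all 10 members were below the lowest WT library and 7 were under 10% of the WT mean, with a median of 3.75% of WT. The medians of replicates 2, 3 and 4 were 37.4%, 80.5% and 107%. In Δ104, 8 of the 10 genes had the order replicate 4, 3, 2, 1 from high to low. In Δ306, 7 genes had the order replicate 2, 1, 3, and the medians were 40.8%, 33.6% and 10.4% of WT. In Δ93 the medians of replicates 1 to 6 were 24.1%, 8.03%, 31.3%, 10.5%, 8.70% and 53.0%, and replicate 6 was the highest for 8 genes. In Δ225 they were 72.3%, 78.8%, 66.3%, 110.3%, 116% and 98.5%. No share over all genes is given for single libraries or replicate orders, so these counts describe the members only.

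Sox9 and Foxl2 moved with these libraries in Δ104 and, in part, in Δ93. Foxl2, the pre-granulosa transcription factor gene, was 77.0, 40.6, 13.0 and 1.22 CPM in Δ104 replicates 1 to 4, while Sox9 was 11.6, 57.8, 116 and 88.9 CPM. WT libraries had 0.63 to 0.83 CPM of Foxl2 and 98.7 to 104.3 CPM of Sox9. In Δ93 Foxl2 was lowest in replicates 1 and 6 (42.5 and 52.0 CPM) and highest in replicates 2, 4 and 5 (130, 137 and 141 CPM), where Sox9 was 9.69, 11.2 and 11.1 CPM. These last 3 libraries were also the ones with 8.03% to 10.5% of the WT level in the median member. Of 10 pre-granulosa markers, 6 rose in Δ306, and 9 rose and 1 fell in Δ93, while none was called in Δ225 or Δ104 with edgeR. In Δ225 and Δ104, 1 and 9 had an unadjusted p under 0.05, beside 3687 and 3610 of all 22941 genes. The summed CPM of the 10 markers was 177 to 252 in WT, 164 to 249 in Δ225, 175 to 1003 in Δ104, 589.8 to 922 in Δ306 and 603 to 1324 in Δ93. Δ93 replicate 3 did not follow the member levels. Its sum was 940 CPM against 687 CPM in replicate 1, although its median member was higher (31.3% against 24.1% of WT). Of 8 Sertoli transcription factor genes, Sox8 fell by 2.66 in Δ93 (edgeR adjusted p = 0.0067), Wt1 rose by 0.59 in Δ93, and Nr0b1 rose by 1.23 in Δ306 and 1.17 in Δ93. Mesonephric markers summed to 90.0 to 103 CPM in WT, 165 to 229 in Δ306 and 168 to 260.2 in Δ93, and endothelial markers to 444 to 622, 281 to 401 and 288 to 418. Of the 7 mesonephric markers, Emx2 was called higher in Δ306. In Δ93, Pax8 and Emx2 were called higher, and Wnt9b lower (log2 fold change -4.51, edgeR adjusted p = 0.00952). The part of the mesonephric and endothelial markers in the member levels was not tested. Germ-cell markers ranged from 18.2 to 733 CPM among the WT libraries themselves.

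**Figure D4:**
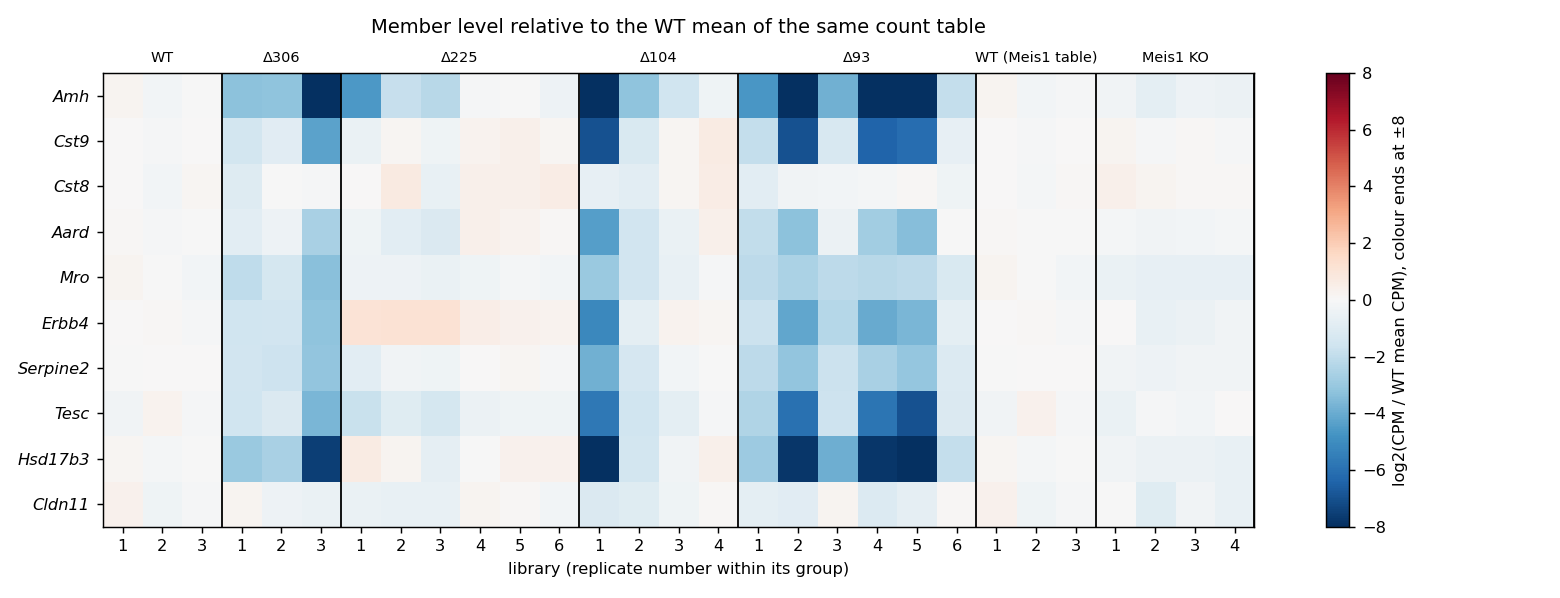
Log2 ratio of each library's CPM to the WT mean of the same count table, with genes as rows and libraries as columns grouped by genotype. Blue columns in Δ306, Δ104 replicate 1 and most of Δ93 span most genes but not Cst8 and Cldn11. In Δ225 replicates 1 to 3 Amh is at 4.06%, 28.0% and 21.5% of the WT mean while Erbb4 is at 216.6% to 224.6%, and the Meis1 KO columns are pale.

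Across the 22 libraries of WT and the deletions, 8 members varied together. For these 8, which leave out Cst8 and Cldn11 and were set apart after their values were seen, Pearson's r of log2 CPM over the 28 pairs was 0.79 to 0.98 with a median of 0.93. These libraries fall into 5 groups that share genotype and differ in depth, so r is given as a description of likeness only. After each group's mean was subtracted it was 0.74 to 0.98 with a median of 0.92, so the likeness is also found within genotypes. Pairs with Cst8 had r from 0.33 to 0.57, with a median of 0.40, which within groups was 0.19. Pairs with Cldn11 had r from 0.35 to 0.82 with a median of 0.66, which within groups was 0.71, so the highest of them exceeded the lowest pair of the 8. Of the 2 genes outside the set with the most similar pattern to each member, those reported, among 16143 genes with a mean of at least 1 CPM, were Col9a3 (r = 0.99) and Ptgds (0.98) for Amh, Dhh and Map3k21 (both 0.99) for Cst9, and Scpep1 and Napg (both 0.84) for Cst8. They were Mmd2 (0.96) and Rerg (0.95) for Aard, Defb19 (0.98) for Mro, Frem3 (0.98) and Plod2 (0.97) for Erbb4, and Cyp26b1 and Sox8 (both 0.98) for Serpine2. For Tesc they were Ptgds (0.98) and Dhh (0.97), for Hsd17b3 Dtna (0.99) and Frem3 (0.98), and for Cldn11 Rasl12 (0.87) and Slc52a3 (0.86). Dhh encodes a hedgehog ligand that Sertoli cells send to Leydig cells, and Ptgds an enzyme that makes prostaglandin D2.

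Compared directly with Δ93, Δ225 had higher levels of the same 4 members that fell in Δ93 against WT. Mro was 3.15-fold higher (log2 fold change 1.65 ± 0.35, edgeR adjusted p = 0.00197), Erbb4 8.26-fold (3.05 ± 0.64, edgeR adjusted p = 0.00205), Serpine2 3.69-fold (1.88 ± 0.45, edgeR adjusted p = 0.00573) and Hsd17b3 14.3-fold (3.84 ± 1.02, edgeR adjusted p = 0.0109). All 6 Δ225 libraries were above all 6 Δ93 libraries for 5 members. Over all genes, 9.96% were called higher in Δ225 and 5.39% did not overlap in that direction. Against Δ306, Mro was 3.33-fold higher (1.74 ± 0.45, edgeR adjusted p = 0.0151) and Erbb4 6.76-fold higher (2.76 ± 0.84, edgeR adjusted p = 0.0333), where 6.47% of all genes were called higher. For 5 members all Δ225 libraries were above all Δ306 libraries, as for 9.82% of all genes. Genotype and sample set cannot be told apart between Δ225 and Δ306. The Erbb4 call was lost without any 1 Δ306 replicate (edgeR adjusted p = 0.0741 to 0.163), and the Mro call without Δ306 replicate 3 (0.0982). Serpine2 (1.74 ± 0.59, edgeR adjusted p = 0.0532) and Hsd17b3 (3.51 ± 1.35, edgeR adjusted p = 0.0883) missed the threshold there. Erbb3, which encodes a second neuregulin receptor, and Nrg1 were also higher in Δ225 than in Δ93 (log2 fold changes 1.32 and 1.16, edgeR adjusted p = 0.0398 and 0.00945), while Ereg was lower by 3.40. Amhr2 was lower in Δ225 than in Δ93 by 1.69 (edgeR adjusted p = 0.00293).

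**Figure D5:**
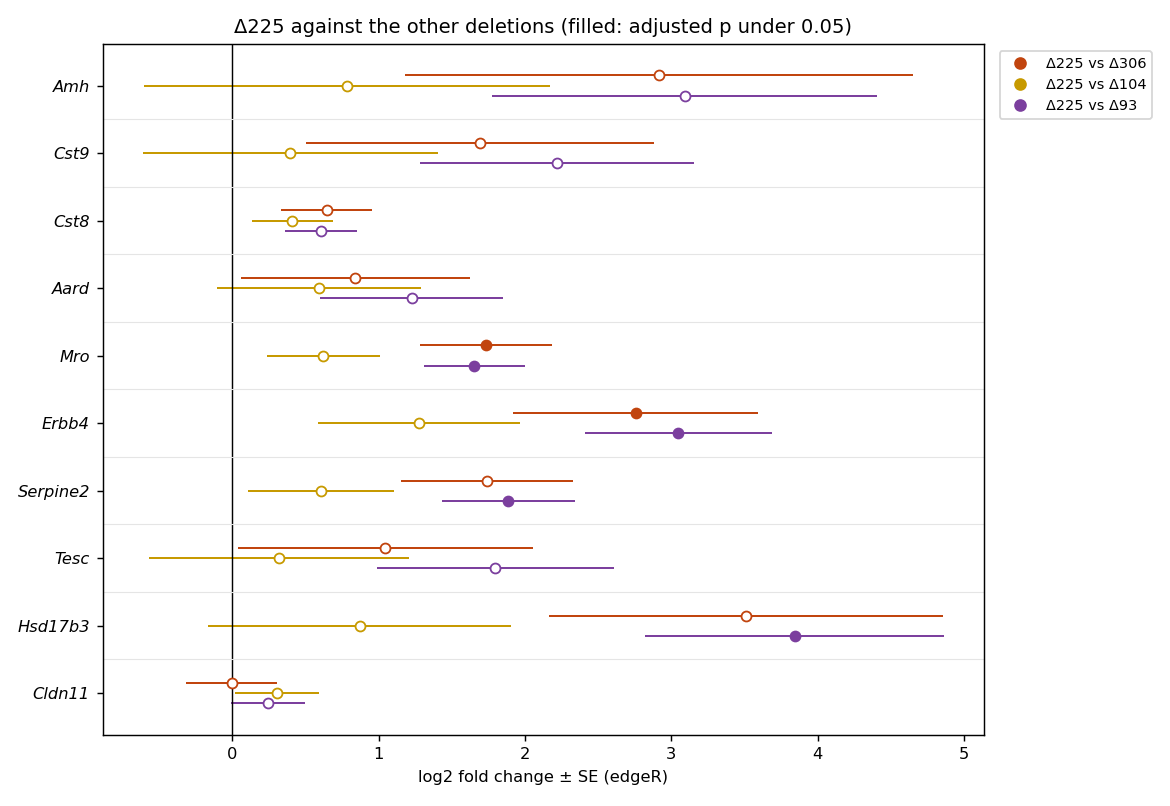
Log2 fold change of Δ225 against Δ306, Δ104 and Δ93 with its standard error from edgeR; filled points have an adjusted p under 0.05. Mro and Erbb4 are filled against both Δ306 and Δ93, Serpine2 and Hsd17b3 against Δ93 only, and none against Δ104.

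Between Δ225 and Δ104 no member was called (0.645% of all genes were, in either direction), with 0 at an unadjusted p under 0.05 and 0 with DESeq2. Of all 22941 genes, 2423 had an unadjusted p under 0.05 in that comparison. Erbb4 differed by 1.28 ± 0.69 on the log2 scale, higher in Δ225 (edgeR adjusted p = 0.532). Δ104 against Δ306 and Δ93 against Δ306 also gave 0 called members, where 0.0654% and 0.0785% of all genes were called, with 1 and 0 members at an unadjusted p under 0.05 and 0 with DESeq2 in both. Over all genes, 2547 and 2065 had an unadjusted p under 0.05 in these. Δ93 against Δ104 gave 0 called members, with 4 at an unadjusted p under 0.05 and 0 with DESeq2, where 0.0523% of all genes were called. Over all genes, 3326 had an unadjusted p under 0.05 there. Without Δ104 replicate 1, Mro, Erbb4, Serpine2 and Hsd17b3 passed as lower in Δ93 than in Δ104.

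In the Meis1 KO the members that were called moved by less than 1 on the log2 scale. Beside them, the Y-linked Uty fell by 3.46 (edgeR adjusted p = 0.0194) and the red blood cell genes Hba-a1 and Alas2 by 0.997 and 1.03 (edgeR adjusted p = 0.0352 and 0.0340), and their part in the member levels was not tested. Mro was 86.2, 73.1 and 62.7 CPM in WT and 51.9, 46.3, 46.4 and 46.2 CPM in the knockout. Serpine2 was 273, 282 and 287 CPM in WT and 227, 210, 227 and 230 CPM in the knockout. The groups did not overlap for either gene. Mro fell 1.55-fold (log2 fold change -0.63 ± 0.11, edgeR adjusted p = 0.0392) and Serpine2 1.26-fold (-0.33 ± 0.06, edgeR adjusted p = 0.0481), so 2 of 10 members were called lower beside 0.53% of all genes. Both calls were lost when any 1 knockout library, or WT replicate 2 or 3, was left out (edgeR adjusted p = 0.0588 to 0.145). Amh was 1806, 1357 and 1478 CPM in WT and 1292, 915, 1187 and 1126 CPM in the knockout, without overlap, and missed the threshold (-0.45 ± 0.14, edgeR adjusted p = 0.137). Hsd17b3 was 54.0, 44.8 and 48.5 CPM in WT and 40.9, 35.1, 35.9 and 32.6 CPM in the knockout (-0.44 ± 0.10, edgeR adjusted p = 0.0687). Aard was also lower in all 4 knockout libraries (-0.20 ± 0.07, edgeR adjusted p = 0.181). In all, 5 members did not overlap WT, where 7.43% of all genes were lower without overlap.

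The other members overlapped WT in the Meis1 KO. Erbb4 was 11.9, 12.6 and 11.1 CPM in WT and 12.1, 7.99, 8.63 and 9.62 CPM in the knockout, and Tesc was 53.0, 79.7 and 59.1 CPM in WT and 43.3, 59.4, 55.9 and 64.4 CPM in the knockout. Cst9 was 103, 93.6 and 101 CPM in WT and 114, 92.0, 107 and 94.5 CPM in the knockout. Cst8 was 47.2, 40.3 and 49.3 CPM in WT and 60.2, 54.2, 47.7 and 49.6 CPM in the knockout, and Cldn11 was 39.8, 24.8 and 29.0 CPM and 29.9, 15.9, 25.3 and 21.0 CPM. Foxl2 rose from 0.821 ± 0.138 CPM (n = 3) to 6.16 ± 0.581 CPM (n = 4) in the knockout (log2 fold change 2.91 ± 0.19, edgeR adjusted p = 0.000753). It was the only 1 of 10 pre-granulosa markers called, and their median log2 fold change was 0.19. The summed CPM of these markers was 233 to 280 in the knockout and 194 to 276 in WT, so the groups overlapped. Of the 8 Sertoli transcription factor genes only Sox10 was called (-0.66, edgeR adjusted p = 0.0369), and of the fetal Leydig markers only Hsd3b6 was lower (-1.01, edgeR adjusted p = 0.0389). No gene of the AMH, ERBB, cystatin, plasminogen, androgen, tight junction or exchanger lists was called by edgeR in the Meis1 KO, where 1.8% of all genes were called in either direction. An unadjusted p under 0.05 was found for 1 to 6 genes of each of these lists, and for 3239 of the 16791 genes tested.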

How the data were processed

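Whole XY E13.5 mouse gonads were profiled by strand-specific poly(A) RNA-seq. The authors deposited raw read counts per gene, aligned with STAR (2.7.10a for the first 6 samples) to mm10, per the submitters' processing notes, which name featureCounts for those 6 only. Gene rows were matched to symbols through the authors' deposited results table, which was used as a map only. The 10 members, the gene lists beside them and the rules were chosen with earlier results of these data known.

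Counts were tested with edgeR 4.0.16 (R 4.3.3): filterByExpr, TMM factors and the quasi-likelihood F test, with Benjamini-Hochberg adjustment over all tested genes. WT and the 4 deletions entered 1 fit of 22 libraries with 17 residual degrees of freedom. The Meis1 table was fitted apart, on 7 libraries, and levels are compared within a table only. The same 3 WT samples stand in both tables, with counts that differ between them. CPM uses TMM-scaled totals, and standard errors of log2 fold changes are the fold change divided by the root of F. The fit was tested on simulated data with the same spread in every group, so unequal spread between groups was not covered. Depth runs from 11.6 to 53.4 M counts per library, and no replicates agreed within sampling noise. Labels name no litters, so p-values measure only the spread between these samples. Of non-member genes, those named are fixed pathway genes, genes of a list with fewer than 6 calls in a comparison, and the 2 most alike in pattern by Pearson's r of log2 CPM (prior count 2). Exons are from GENCODE M21 and promoters from RefSeq. Alternatives were DESeq2 1.42.0, other scaling, no filter, a block, fewer libraries and the table of WT and Δ306 alone. Some genes of these rules are not reported here.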

Additional observations from a re-analysis of the deposited data

Results flagged for a closer look

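In groups of 4 to 10 libraries, a library was picked out where its gap to the next one exceeded Dixon's 95% critical value. Of 40 combinations of gene and group, 3 met this, and chance flags about 1 in 20. Amh in Δ93 replicate 6 was 384 CPM, while the other 5 libraries were at 1.18 to 102 CPM. Mro in the same library was 29.6 CPM against 12.1 to 16.5 CPM in the others. Mro in Meis1 KO replicate 1 was 51.9 CPM, against 46.2 to 46.4 CPM in the other 3, still below every WT library of that table.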

How the results depend on the processing

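Across the 11 comparisons, each of the 10 log2 fold changes was recomputed under every alternative that could be run. Apart from leaving out single replicates, 738 of 790 values kept their direction and side of the threshold, 15 lost the call, 21 gained it and 16 changed sign. The count of members called differed by more than 1.5 times as follows. The share of all genes called in these fits is not given beside it. With DESeq2 it was 2 in Δ306 against WT (1 with edgeR), 4 in Δ225 against Δ306 (2) and 4 in Meis1 KO (2). With the compared groups fitted alone it was 5 in Δ306 against WT and 4 in Δ225 against Δ306, and in the table of WT and Δ306 only it was 5. In both of these fits of Δ306 against WT, the 5 were Amh, Mro, Erbb4, Serpine2 and Hsd17b3. With no low-count filter it was 1 in Meis1 KO. Without the libraries of low Y-linked genes it was 0 in Δ306 against WT, 0 in Δ93 against WT, 0 in Δ225 against Δ306 and 0 in Δ225 against Δ93. The Meis1 table holds no such library, so that alternative was not run there.

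With the replicate number as a block, no member was called in Meis1 KO (0). The other counts were the same, but in Δ93 against WT the 4 members were not: Erbb4 lost its call (-2.50, edgeR adjusted p = 0.0508) and Amh gained one (-5.55, edgeR adjusted p = 0.0368). Same-numbered libraries did not deviate together: 11 of 35 pairs had a correlation over 0.1, with a median of 0.0255 beside -0.00586 in 154 other pairs, and 3 of 22 libraries were most like one of their own number. Under the block, Cst9 was -0.0709 in Δ225 against WT, Aard -0.40 in Δ104 against Δ306, and Cst8 -0.16 and Mro -0.20 in Δ93 against Δ306, each with its sign changed.

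No value that changed sign was called in any of these fits. Cldn11 in Δ225 against Δ306 was 0.0115 with RLE factors, 0.0111 with DESeq2 and 0.00405 with the groups alone, and Cst8 in Δ93 against Δ306 was -0.0210 with no composition factor. Without the libraries of low Y-linked genes, Cst9 was -0.0276 in Δ225 against WT, Aard -0.25 in Δ104 against Δ306, Cst8 -0.10 and Mro -0.61 in Δ93 against Δ306, and Cldn11 -0.27 in Δ93 against Δ104. With libraries of at least 30 M counts only, Aard was 0.28, Serpine2 0.0505 and Cldn11 0.10 in Δ225 against WT. The cause was not tested for any of these.

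With 1 replicate left out, the count of members called ran from 0 to 1 in Δ306 against WT (0 without Δ306 replicate 3 or WT replicate 1), from 2 to 6 in Δ93 against WT (2 without Δ93 replicate 2, 3 or 4 or any WT replicate, 6 without Δ93 replicate 6), and from 0 to 3 in Δ225 against Δ306 (0 without Δ306 replicate 3, 1 without replicate 1 or 2, 3 without Δ225 replicate 1). It ran from 4 to 6 in Δ225 against Δ93, from 0 to 4 in Δ93 against Δ104 (4 without Δ104 replicate 1) and from 0 to 3 in Meis1 KO (3 without WT replicate 1, 0 without any other library), and stayed at 0 in the other 5 comparisons. In the same fits, the count over all genes ran from 205 to 1310 in Δ306 against WT and from 1486 to 3572 in Δ93 against WT. It ran from 887 to 3368 in Δ225 against Δ306 and from 3410 to 6429 in Δ225 against Δ93. In Δ93 against Δ104 it ran from 3 to 791, and in Meis1 KO from 15 to 2204. Of 950 single member values with 1 replicate left out, 867 kept direction and side of the threshold, 31 lost the call, 11 gained it and 41 changed sign. Where a sign changed, the log2 values ran as follows. For Δ225 against WT, the range was Cst9 -0.028 to 0.12. In Δ104 against WT, the ranges were Cst9 -0.96 to 0.0618 and Cst8 -0.38 to 0.11. For Δ225 against Δ306, the range was Cldn11 -0.13 to 0.28. In Δ225 against Δ104, the ranges were Cst9 -0.012 to 1.007 and Tesc -0.0822 to 0.92. For Δ104 against Δ306, the ranges were Cst8 -0.0688 to 0.41 and Aard -0.49 to 0.67. In Δ93 against Δ306, the ranges were Amh -1.65 to 0.28, Cst9 -1.18 to 0.14, Cst8 -0.20 to 0.22, Aard -0.91 to 0.10, Mro -0.25 to 0.60, Erbb4 -0.91 to 0.015, Serpine2 -0.46 to 0.14, Hsd17b3 -1.33 to 0.30 and Cldn11 -0.41 to 0.039. For Δ93 against Δ104, the ranges were Cst8 -0.35 to 0.11, Aard -1.14 to 0.10 and Cldn11 -0.0894 to 0.33. In Meis1 KO against WT, the range was Cst9 -0.023 to 0.0799. The lowest member values rest on few counts: 4 counts of Hsd17b3 in a Δ93 library.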
